A study of Rattus norvegicus with 24 samples.

Results

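Carbonic anhydrases are zinc enzymes that interconvert carbon dioxide and bicarbonate with release or uptake of a proton. Cytosolic forms set the pH inside cells and feed bicarbonate and proton carriers, and forms held at the cell surface act on the fluid outside. Growth plate cartilage has no blood vessels and relies on glycolysis, so its chondrocytes export acid, and resorbing osteoclasts use Car2 to supply protons to the mineral surface. The genes described here are Car2, Car3, Car4, Car8, Car9 and Car12, read in every zone of the rat growth plate through all probe sets that the platform annotation gives to them. They were 6 of the 14217 genes with 1 symbol on the array and were covered by 9 of its 31099 probe sets. They were chosen by their signals across the 5 zones, which were known beforehand, so their levels and differences are given as a description, with no test.

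The study asked how gene expression differs between the zones of the postnatal growth plate, in connection with Indian hedgehog signalling. Cartilage was cut by hand from stained frozen sections, 60 µm thick, of the upper tibia of 1-week-old rats, all labelled as not castrated and with no treatment given. The groups were epiphyseal cartilage from 4 animals and resting, proliferative, transition and hypertrophic zone from 5 animals each, 24 arrays in all, and arrays of 1 number came from 1 animal. Between 50 and 100 ng of total RNA was amplified in a pair of cycles for each array. Male rats are named in the labels of 3 zones (resting, proliferative and hypertrophic), while the labels of epiphyseal and transition samples have another wording and give no sex. In comparisons across these sets of labels (resting with epiphyseal, transition with proliferative, hypertrophic with transition), a difference between the sets cannot be told apart from the zone. Proliferative with resting and hypertrophic with proliferative lie within 1 set. The median signal of an array was between 135.3 and 244.6, the number of arrays limits the precision, and signal levels are not compared between genes because probe sets differ in efficiency.

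The zone labels were set against marker genes. All 9 tested markers of hypertrophic chondrocytes were higher in hypertrophic than in proliferative zone, where 9.59% of all probe sets rose. In transition relative to proliferative zone 7 of 9 were higher, where 3.11% of all probe sets rose. Epiphyseal arrays also held signal of these genes. In resting relative to epiphyseal arrays 4 of 9 (Col10a1, Alpl, Pth1r and Phospho1) were lower, where 0.859% of all probe sets fell. The summed signal of the 9 was 16654 to 35035 in resting and 40088 to 71284 in epiphyseal arrays. For 9 chondrocyte markers such as Col2a1 and Acan, limma called 0 between any neighbouring zones, with 0, 1, 0 and 2 at an unadjusted p below 0.05 from epiphyseal to hypertrophic, and their summed signal was between 233440 and 601020 in every array. Between hypertrophic and proliferative zone 1 of the 9, Matn1, was lower, as were 9.07% of all probe sets. The F test across zones was passed by 3 of the 9 and by 55.6% of all probe sets. Markers of other tissues also had signal, which was high in some arrays. The summed signal of 11 skeletal muscle markers (of 15 listed) was up to 56631 in epiphyseal, 108860 in resting, 18993 in proliferative, 12390 in transition and 33725 in hypertrophic arrays. That of 6 osteoclast markers (of 13) was up to 63268, 25941, 2737.5, 3246.9 and 80712 in the same order of zones. Of the muscle markers, Tnni2 alone read 7060.8 to 12845 in resting arrays, where the lowest muscle sum was 11652. How much of another tissue an array held was not tested.

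Of the 6 genes, 4 had a probe set above the median of its array in at least 4 arrays, which is the filter used here: Car8, Car9, Car2 and Car3. Differences are given on the log2(signal + 16) scale with the standard error from a fit that holds the animal as a block, and the added 16 understates the change of dim probe sets. A signal in dissected tissue cannot tell apart fewer cells of a type and less RNA per cell. Described by zone, Car8 peaked in the transition zone, Car9 in the proliferative zone, and Car2 and Car3 had their highest mean in the hypertrophic zone. With 1 probe set per gene, the brightest, 0 of 4 had groups that did not overlap between resting and epiphyseal arrays, against 4.93% of the 19213 probe sets tested. The count was 2 of 4 between proliferative and resting zone (9.33% of probe sets), 2 of 4 between transition and proliferative zone (12.8%), 4 of 4 between hypertrophic and transition zone (11.4%) and 4 of 4 between hypertrophic and proliferative zone (19.7%). Because the genes were picked for such patterns, nothing is read from these counts.

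**Figure D1:**
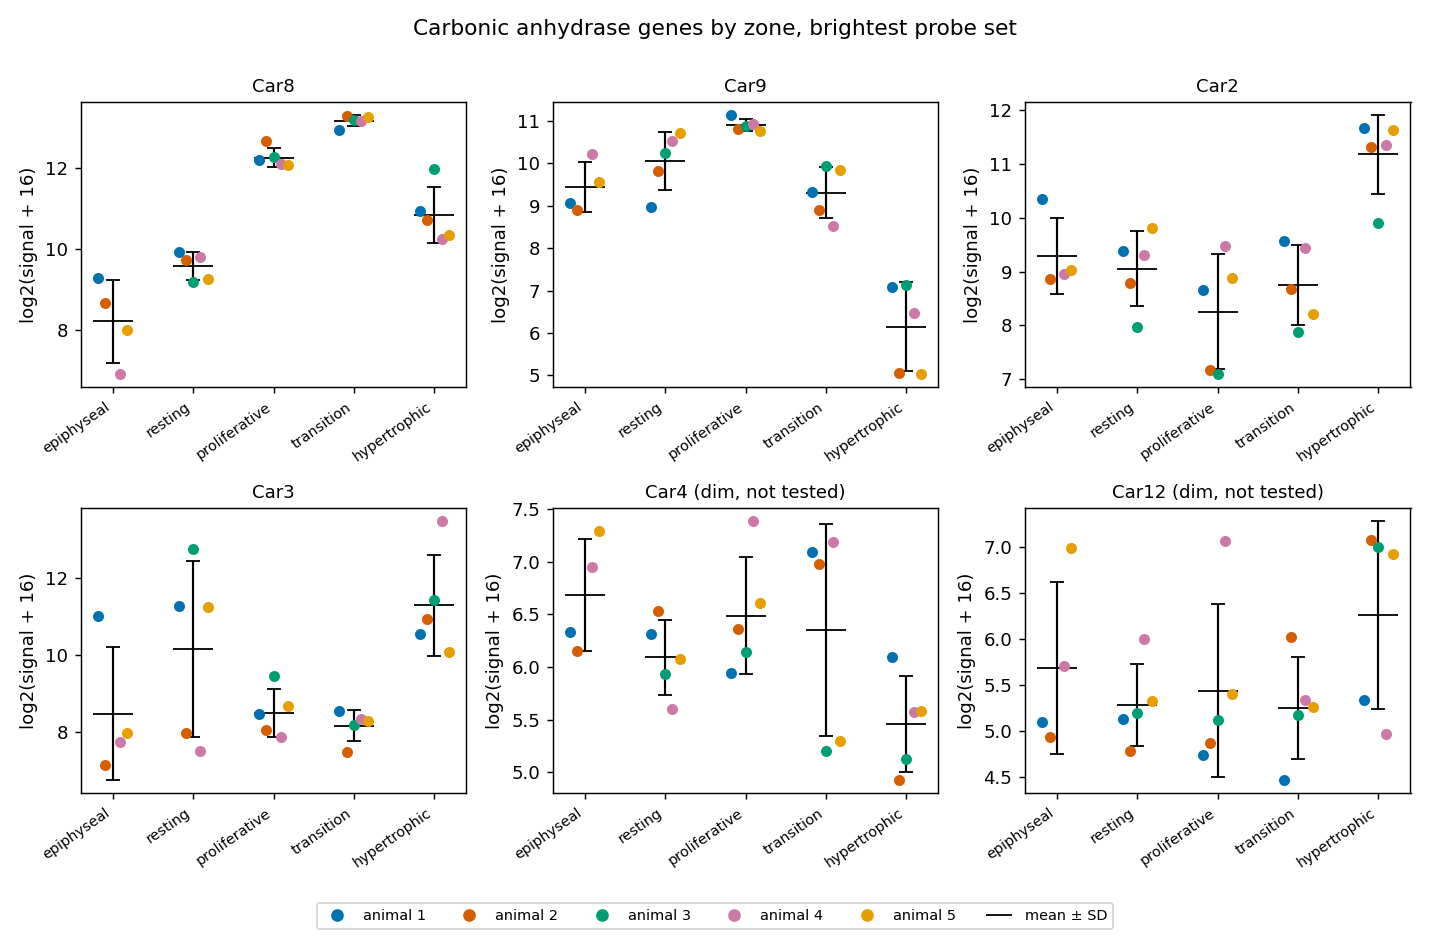
Signal of the 6 carbonic anhydrase genes in each zone on the log2(signal + 16) scale (vertical axes, which differ between panels), from the brightest probe set of each gene, with 1 point per array coloured by animal and the mean ± SD as bars. Car8 is highest in transition arrays, Car9 in proliferative arrays, Car2 and Car3 have their highest mean in hypertrophic arrays, and Car4 and Car12 stayed dim.

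Car8 belongs to the family by sequence but lacks a histidine needed to hold the catalytic zinc, so it has no carbonic anhydrase activity. In mouse it is known as a binding partner of the inositol trisphosphate receptor Itpr1. Its signal in animals 1, 2, 4 and 5 was 605.3, 386.4, 103.2 and 238.3 in epiphyseal cartilage. In animals 1 to 5 it was 948.2, 828.8, 562.3, 871.4 and 593 in resting zone and 4630.5, 6387.1, 4868.6, 4367.8 and 4233.1 in proliferative zone. It was 7787.9, 9811.7, 9166.8, 9112.1 and 9775.8 in transition zone and 1928.1, 1648.9, 3953.1, 1188.8 and 1287 in hypertrophic zone. By mean signal the order was epiphyseal, resting, hypertrophic, proliferative, transition, and only the lowest pair of neighbours, epiphyseal and resting, overlapped. The spread was small at the peak, with a mean of 9130.9 ± 819.25 in transition arrays and 4897.4 ± 867.91 in proliferative arrays (SD, n = 5 each).

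Car8 was higher in proliferative than in resting zone by 2.68 ± 0.28 (log2 difference ± SE), the largest difference among these 4 genes at that step. It was higher again in transition than in proliferative zone, by 0.91 ± 0.28 and in 5 of 5 animals. In hypertrophic zone it was lower than in transition zone by a log2 difference of -2.32 ± 0.28, and lower than in proliferative zone by -1.41 ± 0.28. Animal 3 was the highest hypertrophic array, and its 3953.1 still lay below every proliferative array. The difference between resting and epiphyseal arrays was 1.32 ± 0.30, and without animal 4, whose epiphyseal array was the lowest of its group, it was 0.82. For Itpr1 and the related receptors Itpr2 and Itpr3, limma called none in any of the 5 comparisons, with an unadjusted p below 0.05 for 0, 0, 1, 2 and 0 of the 3. Across zones 1 of the 3, Itpr3, passed the F test (adjusted p = 0.0058), as 55.6% of all probe sets tested did.

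Car9 is a membrane enzyme with its active site outside the cell, and its gene is a classic target of the hypoxia-inducible factors. Those factors bind sites built on the letters ACGTG, which in human lie just before the start of the gene. The start of the rat gene is shown because of that role, as the plus strand of chromosome 5 at chr5:62558924-62559043 in GRCr8 (RefSeq), from 100 bases before to 20 bases after the start, with the 5 letters of the motif in capitals as they read on this strand.

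Car9 start: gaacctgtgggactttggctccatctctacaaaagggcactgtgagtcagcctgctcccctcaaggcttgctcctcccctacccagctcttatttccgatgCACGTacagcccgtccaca

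The search took ACGTG on both strands, and the 1 match was on the opposite strand. As printed, it begins at base 2 of the gene, so it lies after the annotated start and not before it. The same letters occur in this window in 3030 of 33469 RefSeq promoters (9.05%), so the match is a description and not a mapped site. Car9, Car12 and Car4 were the 3 of these genes with an entry in the promoter table, and each had 1 match.

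The Car9 signal was 520.3, 463.4, 1171.8 and 739.3 in epiphyseal cartilage of animals 1, 2, 4 and 5. It was 486.3, 890.3, 1202.4, 1453.9 and 1660.1 in resting zone and 2228.7, 1770.3, 1866.3, 1935.8 and 1733.1 in proliferative zone. It was 620.1, 460, 969.2, 353.9 and 895.3 in transition zone and 119.7, 17.2, 123.3, 72.2 and 16.5 in hypertrophic zone. All hypertrophic arrays lay far below those of the other zones, and all proliferative arrays lay above them. From low to high the means ran hypertrophic, transition, epiphyseal, resting, proliferative, and transition with epiphyseal and epiphyseal with resting overlapped.

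The mean of Car9 was 69.78 ± 52.359 in hypertrophic zone and 1906.8 ± 196.79 in proliferative zone (SD, n = 5 each), a log2 difference of -4.75 ± 0.36. With 64 added before the log in place of 16 the difference was -3.97. The difference was made up of 2 steps, -1.60 ± 0.36 between transition and proliferative zone and -3.15 ± 0.36 between hypertrophic and transition zone, and each step was lower in 5 of 5 animals. Proliferative zone exceeded resting zone by 0.85 ± 0.36. That difference was uneven, with paired values of 2.16, 0.98, 0.63, 0.41 and 0.06 in animals 1 to 5, and it was 0.52 without animal 1. Between transition and proliferative zone Car8 was higher and Car9 lower, with no overlap for either gene.

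**Figure D2:**
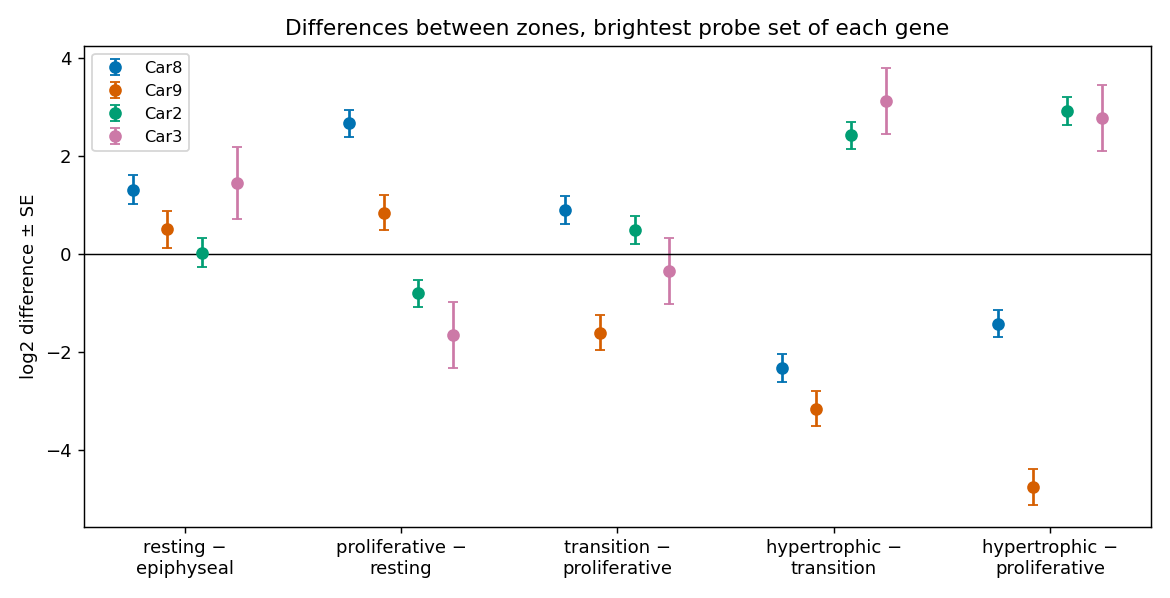
Log2 differences between zones (vertical axis, on the log2(signal + 16) scale, later zone minus earlier zone) for the brightest probe set of Car8, Car9, Car2 and Car3, with the SE of the fit as bars. Hypertrophic zone is below both other zones for Car8 and Car9 and above both for Car2 and Car3.

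Car2 is the fast cytosolic enzyme found at high level in red blood cells and in osteoclasts, where it supplies protons for bone resorption. Its brightest probe set read 1290.1, 447.6, 482.1 and 505 in epiphyseal cartilage. It read 653.1, 429.1, 236, 617.6 and 881.9 in resting zone and 388, 129.1, 120.3, 693.6 and 453.1 in proliferative zone. It read 743.5, 391.9, 219.7, 676.2 and 279.6 in transition zone and 3242.2, 2531, 945.6, 2611.5 and 3171.1 in hypertrophic zone. The 4 zones before the hypertrophic one overlapped one another, and animal 3 was the lowest hypertrophic array. That array overlapped the epiphyseal range but stood above all resting, proliferative and transition arrays.

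The mean of Car2 was 2500.3 ± 926.12 in hypertrophic zone and 356.82 ± 240.55 in proliferative zone (SD, n = 5 each). The log2 difference was 2.92 ± 0.28 from proliferative and 2.43 ± 0.28 from transition zone. Its second probe set read 928.5, 1524.9, 882.1, 1739.5 and 3181 in hypertrophic zone and at most 541.9 in transition and 533.1 in proliferative zone, with a difference of 2.35 ± 0.30 from each. The other steps were smaller: -0.80 ± 0.28 between proliferative and resting zone and 0.50 ± 0.28 between transition and proliferative zone on the brightest probe set.

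Markers of many cell types of bone and marrow were, like Car2, higher in hypertrophic than in transition and proliferative zone. In hypertrophic zone, relative to transition zone and again relative to proliferative zone, 6 of 6 tested leukocyte, 6 of 6 osteoblast, 3 of 5 endothelial, 6 of 9 erythroid and 5 of 6 osteoclast markers rose. Of all probe sets 6.78% rose in the first comparison and 9.59% in the second. Camp, a leukocyte marker, lay below the array median in every array outside hypertrophic zone. Phex, an osteoblast marker, and Ptprc, a leukocyte marker, could not have passed the filter without hypertrophic arrays. Nothing is read from the rise of these markers. Spp1 is counted here as an osteoblast marker and above as a hypertrophic chondrocyte marker. Red cells and osteoclasts are known for Car2. Of the 9 tested erythroid markers (15 listed), Hbb, the beta-globin gene, was higher than in transition zone by 2.66 ± 0.29 (adjusted p = 4.7e-07). Their summed signal was 32772, 24707, 15403, 28730 and 43617 in the 5 hypertrophic arrays, against 5190.5 to 10477 in transition and 6008.3 to 10798 in proliferative arrays. Animal 3 was the lowest hypertrophic array for this sum as well as for Car2. It was also the lowest of the zone for the leukocyte (3827.6), osteoblast (31000) and hypertrophic chondrocyte (140020) sums. For the osteoclast and endothelial sums it was not. Among the other erythroid markers, Epb42 and Rhag did not pass the filter. Tfrc averaged 4686.2 in hypertrophic, 3763.7 in transition and 4120.7 in proliferative zone, and Epor averaged 404.56, 260.38 and 356.3. Of the osteoclast markers, Acp5, the tartrate-resistant phosphatase, was higher than in proliferative zone by 4.15 ± 0.81 (adjusted p = 0.000215). The osteoclast sum was 13138, 9292.2, 12908, 80712 and 10811 in hypertrophic arrays, against 1988.5 to 3246.9 in transition and 1336.1 to 2737.5 in proliferative arrays. In the epiphyseal arrays of animals 1, 2, 4 and 5 it was 63268, 30705, 4090.1 and 4151.9. There Car2 read 1290.1, 447.6, 482.1 and 505, so the sum of 30705 came with the lowest epiphyseal Car2. Endothelial sums were up to 5448.3 in epiphyseal and 2713.2 in hypertrophic arrays. The osteoclast marker Nfatc1 did not rise, with a mean of 962.78 in hypertrophic, 1136.3 in transition and 1063.7 in proliferative zone. Of the remaining osteoclast markers, Calcr and Tnfrsf11a did not pass the filter, and Oscar, Ocstamp, Dcstamp, Atp6v0d2 and Siglec15 were not analysed here. What part these cells had in the Car2 values was not tested.

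Car3 is a cytosolic enzyme of low activity that is abundant in slow skeletal muscle and in fat. Its brightest probe set read 2037.5, 125.3, 199.5 and 237.5 in epiphyseal cartilage and 2459.1, 236.1, 6912.6, 167.5 and 2410.8 in resting zone. It read 338.1, 248.9, 688.3, 218.9 and 395.9 in proliferative zone and 355.8, 162.6, 274.2, 307.3 and 294.8 in transition zone. It read 1471.3, 1937.5, 2741.9, 11352 and 1064.4 in hypertrophic zone. Resting arrays split into 3 high and 2 low, and 1 of the 4 epiphyseal arrays was high. All hypertrophic arrays were above all transition and proliferative arrays, and animal 4 stood far above the rest of that zone.

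The difference for Car3 between hypertrophic and transition zone was 3.13 ± 0.68 and that between hypertrophic and proliferative zone 2.78 ± 0.68. Without the hypertrophic array of animal 4 these were 2.33 ± 0.59 and 1.98 ± 0.59. The second probe set was dim, between 5.2 and 510.3, and gave 0.91 ± 0.73 and 1.66 ± 0.73 with overlapping groups. Proliferative zone was lower than resting zone by -1.65 ± 0.68, and by -1.09 ± 0.69 without the resting array of animal 3.

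Skeletal muscle markers followed Car3 in part. Of the 11 tested, 8 fell in proliferative relative to resting zone and 7 rose in hypertrophic relative to transition zone, against 4 and 1 in a fit with no animal block. Of all probe sets 4.12% fell in the first comparison and 6.78% rose in the second. Relative to proliferative zone, only 2 of the 11 rose in hypertrophic zone (9.59% of all probe sets). The 8 became 5, 2 and 3 without animal 1, 3 or 5, and the 7 became 2 without animal 5 and 4 without the hypertrophic array of animal 4. Their sums in the resting arrays of animals 1, 3 and 5, where Car3 was high, were 55430, 108860 and 73052, against 11652 and 13150 in animals 2 and 4. In hypertrophic arrays the sums were 33725, 9726.5, 14901, 15177 and 28374, and there Car3 was highest in animal 4, whose muscle sum was the median of the 5. Among the sums of cell type markers, that array was the highest of the zone for 5 others. Its fibroblast and perichondrium markers summed to 152010 (35191 to 45199 in the other hypertrophic arrays), its osteoblast markers to 110940 (31000 to 50776) and its osteoclast markers to 80712 (9292.2 to 13138). Col1a1 is part of both the fibroblast and the osteoblast sum, so these sums are not independent. Its leukocyte markers summed to 14449 (3827.6 to 13967) and its endothelial markers to 2713.2 (710.9 to 1371.7). Of 4 tested fat cell markers (10 listed), limma called 0 in the 5 comparisons, with an unadjusted p below 0.05 for 2 in hypertrophic against transition zone and for 0 in the others. The part of muscle or other tissue in the Car3 values was not tested.

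**Figure D3:**
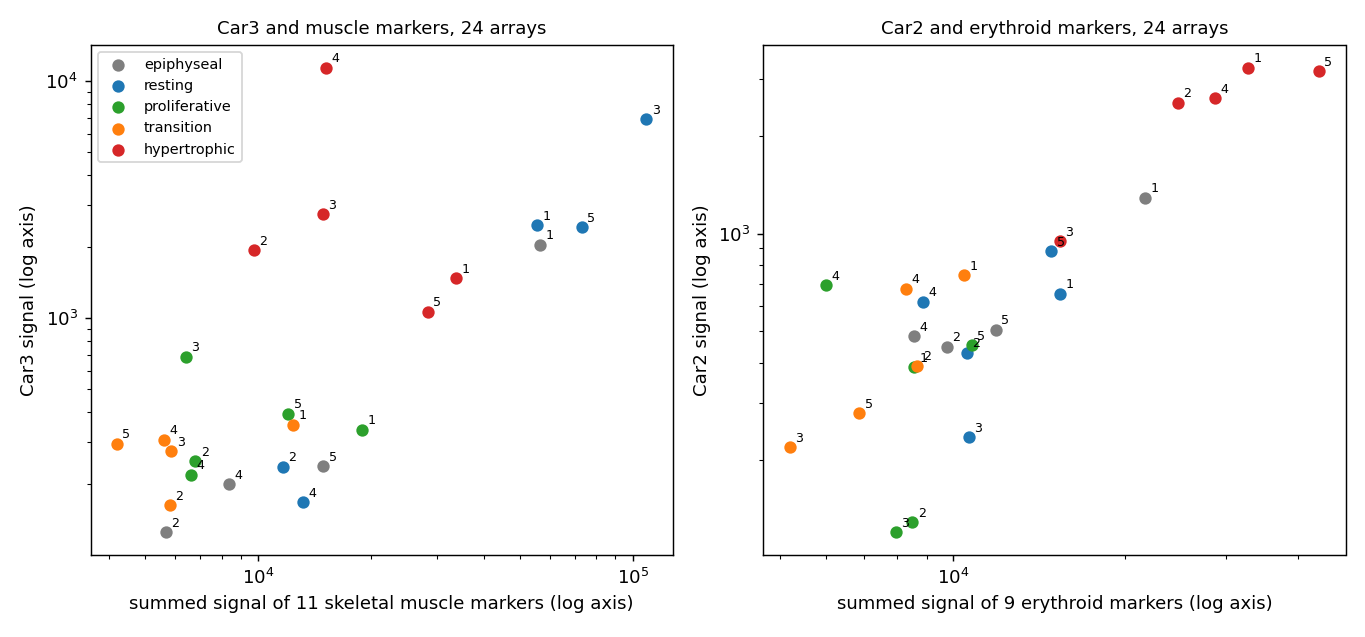
Left, Car3 signal (vertical) against the summed signal of 11 skeletal muscle markers (horizontal), and right, Car2 signal against the summed signal of 9 erythroid markers, all on log axes, with 1 point per array coloured by zone and numbered by animal. Resting arrays with high Car3 lie at high muscle sums, the hypertrophic array of animal 4 has the highest Car3 at a muscle sum of 15177, and the 4 hypertrophic arrays with the highest Car2 also have the highest erythroid sums.

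Car4, held at the cell surface by a lipid anchor, and Car12, which like Car9 spans the membrane and acts outside the cell, did not pass the filter. The Car4 probe sets read 14.3 to 151 and 4.9 to 158.1, above the array median in 0 and 1 of 24 arrays. Car12 read 6.1 to 118.7, above the median in 0 arrays. In hypertrophic zone Car12 was at 24.4, 118.7, 112.2, 15.4 and 105.4, and 1 proliferative array reached 118.4, so these zones overlapped. The brighter Car4 probe set read 14.3 to 52.1 in hypertrophic and 55.3 to 141 in epiphyseal arrays, with no overlap. The dimmer one read 7.6 to 36.4 in proliferative and 47.7 to 104.6 in resting arrays, where the brighter one overlapped. These dim signals were not tested. Car9 was thus the only surface carbonic anhydrase among the 6 with a signal above the filter.

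Of 10 other genes of the family listed, 8 were on the array with 1 symbol and 4 passed the filter: Car1, Car7, Car11 and Car14. These were not among the chosen genes. A call needed an adjusted p below 0.05 over all probe sets and a fold of at least 2. Across the 5 zones Car11 (adjusted p = 1.4e-07) and Car14 (adjusted p = 0.0189) passed the F test of limma, as 55.6% of all probe sets tested did. Car7, a cytosolic form known from brain and muscle, did not (adjusted p = 0.319). Car5a, Car5b, Car6 and Car10 were too dim, and Car13 and Car15 were not analysed here.

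Car1, the abundant low-activity enzyme of red cells, read 274.3, 168.6, 434.4, 519.6 and 724.6 in hypertrophic zone. It reached at most 109.8 in transition, 54.4 in proliferative, 131.7 in resting and 122 in epiphyseal arrays, so the hypertrophic zone did not overlap any other. It was higher than in transition zone by 2.76 ± 0.64 and than in proliferative zone by 3.46 ± 0.64. Its 4 arrays above the median were all hypertrophic, so it passed the filter through that zone alone, and these differences are a description with no p. In the gene order of GRCr8, Car2, Car3, Car1 and Car13 lie next to each other on chromosome 2, and the 3 of these that were measured all had their highest mean in hypertrophic zone. Car2 and Car3 were chosen with their zone signals known, and Car1 passed the filter through that zone. Nothing is therefore read from their shared peak.

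Car11 is a secreted relative that, like Car8, lacks enzyme activity. The mean of its brightest probe set was 958.32 ± 348.1 in epiphyseal (n = 4), 1481.7 ± 354.13 in resting, 679.66 ± 243.19 in proliferative, 308.82 ± 141.27 in transition and 421.24 ± 270.62 in hypertrophic arrays (SD, n = 5 each). It fell by 1.14 on the log2 scale in proliferative relative to resting zone (SE 0.25, adjusted p = 0.0022) and by 1.18 in transition relative to proliferative zone (SE 0.25, adjusted p = 0.00101). The later step was under 2-fold without animal 1, at -0.91. The other probe sets bore this out only in part. The next brightest was called for the earlier step (-1.46 ± 0.33, adjusted p = 0.00348) and not for the later one (-0.73 ± 0.33, adjusted p = 0.124). The dimmest was called for neither, at -0.76 ± 0.40 (adjusted p = 0.222) and -0.67 ± 0.40 (adjusted p = 0.254). Car14, a membrane enzyme with its active site outside the cell, read 15.3 to 186.8 in proliferative and 142 to 309.6 in resting zone. Its difference of -1.42 ± 0.41 (adjusted p = 0.0217) passed, but not without animal 2, 3 or 5. Its second probe set, too dim to test, ran the other way, with a mean of 123.52 in proliferative and 88.52 in resting zone. By their brightest probe sets these 2 genes fell in proliferative relative to resting zone, where 4.12% of all probe sets fell and 1.97% rose.

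**Figure D4:**
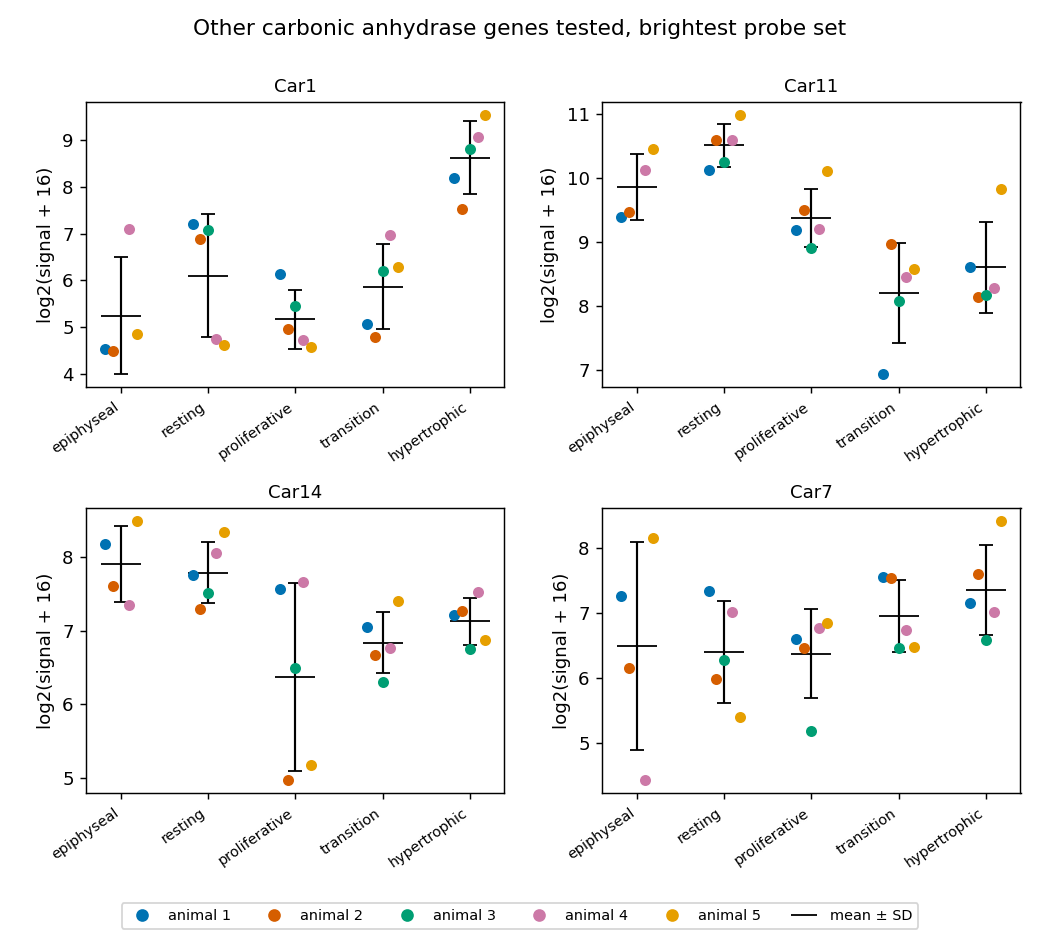
Signal of the 4 other carbonic anhydrase genes that passed the filter, on the log2(signal + 16) scale (vertical axes, which differ between panels), in each zone, with 1 point per array coloured by animal and mean ± SD as bars. Car1 is highest in hypertrophic arrays, Car11 is highest in resting arrays, and Car7 overlaps between all zones.

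The carriers that move bicarbonate, protons and lactate across membranes work on the products of these enzymes. Of 31 listed, 15 were tested and 8 passed the F test, a share near the 55.6% of all probe sets. Between hypertrophic and proliferative zone 3 rose and 2 fell, where 9.59% of all probe sets rose and 9.07% fell. The median log2 difference of the 15 was 0.165, against -0.0491 over all probe sets tested. The chloride-bicarbonate exchanger Slc4a3 averaged 6937.2 ± 2383.8 in hypertrophic and 889.3 ± 427.39 in proliferative zone (SD, n = 5 each), with a difference of 3.00 ± 0.28 (adjusted p = 7.6e-09). The sodium-bicarbonate cotransporter Slc4a4 rose by 1.73 ± 0.24 (adjusted p = 4.0e-06). Slc4a1, the anion exchanger of red cells and also one of the erythroid markers above, rose by 2.00 ± 0.35 (adjusted p = 6.7e-05).

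The genes that fell were both acid exporters. Slc9a5, a sodium-proton exchanger, averaged 69.62 ± 71.327 in hypertrophic and 373.16 ± 64.288 in proliferative zone (SD, n = 5 each), a difference of -2.47 ± 0.42 (adjusted p = 4.6e-05). Slc16a3, which exports lactate with a proton and is itself a hypoxia-inducible gene, averaged 4921.1 in hypertrophic and 11974 in proliferative zone, a difference of -1.34 ± 0.25 (adjusted p = 0.000139). Slc16a3 and Slc9a5 thus fell in the zone in which Car9 was lowest. Slc4a2, the exchanger that osteoclasts use to remove the bicarbonate made by Car2, averaged 160.6 ± 63.807 in hypertrophic and 116.54 ± 33.056 in proliferative zone and was not called.

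The carriers changed at different steps. Relative to transition zone, 2 rose and 1 fell in hypertrophic zone (6.78% and 2.49% of all probe sets): Slc4a3 by 2.02 ± 0.28 (adjusted p = 1.1e-05), Slc4a1 by 2.46 ± 0.35 (adjusted p = 1.5e-05), and Slc16a3 by -1.53 ± 0.25 (adjusted p = 7.9e-05). Relative to proliferative zone, 1 rose (2 without animal 4 or 5, or scaled to one median) and 1 fell in transition zone, where 3.11% of all probe sets rose and 5.31% fell. These were Slc4a4, by 1.22 ± 0.24 (adjusted p = 0.000702), and Slc9a5, which averaged 96.96 in transition and 373.16 in proliferative zone (adjusted p = 0.00112). Relative to resting zone 1 fell in proliferative zone, the monocarboxylate carrier Slc16a7, by -2.45 ± 0.44 (adjusted p = 0.00029). Of all probe sets 4.12% fell there and 1.97% rose. None was called between resting and epiphyseal arrays by limma, with 3 of 15 at an unadjusted p below 0.05, where 0.651% of all probe sets rose and 0.859% fell.

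Osteoclasts pair Car2 with a vacuolar proton pump, which other cells use to acidify their organelles. Of 25 genes of the pump and its partners, 21 were tested and 18 passed the F test (55.6% of all probe sets). In hypertrophic relative to proliferative zone 5 rose and 0 fell, where 9.59% of all probe sets rose and 9.07% fell. An unadjusted p below 0.05 was found for 15 of 21, and the median difference was 0.774, against -0.0491 over all probe sets tested. The subunits Atp6v1h, by 1.36 ± 0.18 (adjusted p = 2.4e-06), and Atp6v1b2, by 1.44 ± 0.26 (adjusted p = 7.7e-05), were among them, with Atp6v1e1, Atp6ap2 and Ostm1. The count was 8 without animal 2, and 3 without the hypertrophic array of animal 4, which had the highest osteoclast sum; the part of osteoclasts in these counts was not tested. In transition relative to proliferative zone 3 rose, led by Atp6v0e1 with 1.24 ± 0.18 (adjusted p = 1.6e-05), where 3.11% of all probe sets rose. That count was 1 without animal 5 and 5 without animal 3. Between hypertrophic and transition zone limma called 0, with 10 at an unadjusted p below 0.05, where 6.78% of all probe sets rose and 2.49% fell. In proliferative relative to resting zone only Atp6v0e1 rose, by 1.09 ± 0.18 (adjusted p = 0.000124), and not without animal 3. Of all probe sets 1.97% rose there and 4.12% fell. Between resting and epiphyseal arrays limma called 0, with 2 at an unadjusted p below 0.05, where 0.651% of all probe sets rose and 0.859% fell. Tcirg1, the subunit that osteoclasts use, had a difference of 1.00 ± 0.25 (adjusted p = 0.00235) between hypertrophic and proliferative zone, just under the fold needed for a call, and the chloride-proton exchanger Clcn7 did not pass the filter.

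Car9 was also set beside 30 genes of the response to low oxygen, of which 28 were tested and 25 passed the F test (55.6% of all probe sets). In hypertrophic relative to proliferative zone 5 fell and 3 rose, where 9.07% of all probe sets fell and 9.59% rose. The median difference of the 28 was -0.523, against -0.0491 over all probe sets tested. Egln1, a prolyl hydroxylase that marks the hypoxia-inducible factors for destruction, averaged 1157.2 in hypertrophic and 3025.7 in proliferative zone, a difference of -1.40 ± 0.21 (adjusted p = 1.0e-05). Bnip3, a mitophagy receptor, differed by -1.36 ± 0.21 (adjusted p = 1.6e-05) and the glycolytic enzyme Eno1 by -1.02 ± 0.14 (adjusted p = 4.5e-06). Epas1, which encodes one of the factors themselves, rose by 4.20 ± 0.25 (adjusted p = 2.4e-12), averaging 3997.9 in hypertrophic and 202.74 in proliferative zone. The called genes thus moved in both directions, and the count that fell was 3 without animal 5.

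Relative to transition zone, 5 of the 28 rose and 3 fell in hypertrophic zone, where 6.78% of all probe sets rose and 2.49% fell. The median difference of the 28 was nevertheless below 0, at -0.518, against 0.0162 over all probe sets tested. Vegfa, the vascular growth factor that hypertrophic cartilage makes, rose by 1.44 ± 0.31 (adjusted p = 0.00163). Its mean was 3463.7 in hypertrophic and 1282 in transition zone, and its highest mean, 5503.8, was in resting zone. Pdk1, a kinase that blocks entry of pyruvate into mitochondria, differed by -1.28 ± 0.24 (adjusted p = 0.000377). With arrays scaled to one median 3 rose and 7 fell, and without animal 3 the number that fell was 6. Between transition and proliferative zone, where Car9 was lower by -1.60 ± 0.36, limma called 0 of 28, with 6 at an unadjusted p below 0.05. Of all probe sets 3.11% rose there and 5.31% fell. In proliferative relative to resting zone 3 fell, Epas1, Adm and Vegfa, where 4.12% of all probe sets fell and 1.97% rose. Car9 was higher there. The count that fell was 1 without animal 2, 3 or 5. Between resting and epiphyseal arrays only Epas1 fell, by -1.19 ± 0.26 (adjusted p = 0.0117), and not without animal 1 or 2. Of all probe sets 0.859% fell there and 0.651% rose.

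**Figure D5:**
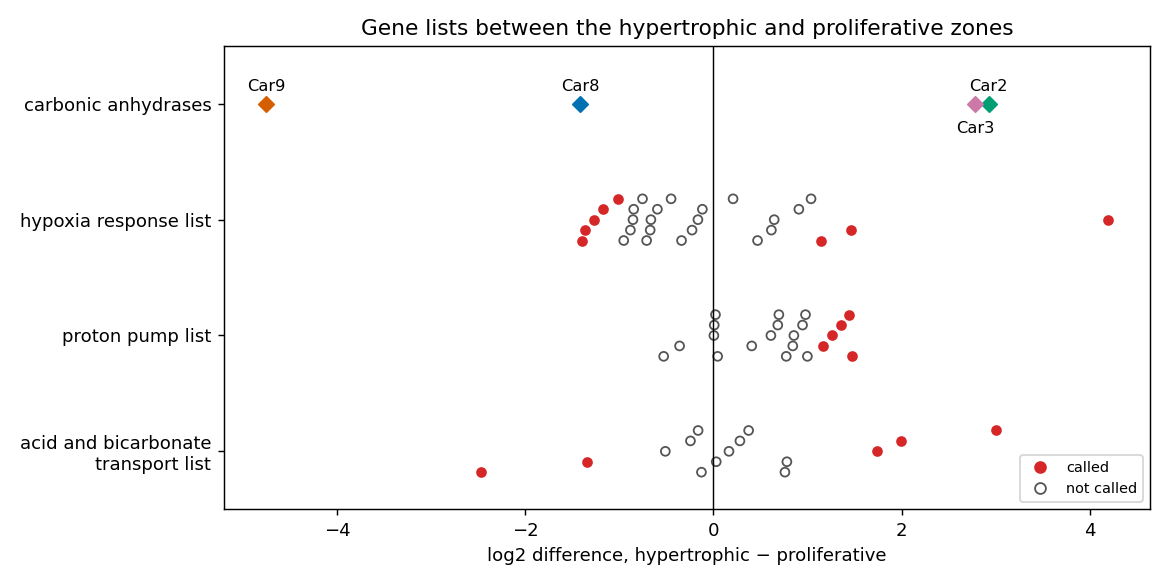
Log2 difference between hypertrophic and proliferative zone (horizontal axis, log2(signal + 16) scale) of the 4 carbonic anhydrases with a signal above the filter (diamonds) and of the tested genes of 3 lists, filled where called and open where not. Of the hypoxia response genes 3 rose and 5 fell, of the proton pump genes 5 rose, and of the transport genes 3 rose and 2 fell.

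For each carbonic anhydrase, the genes with the most similar pattern over the 24 arrays were taken among 10557 other genes. The measure was the root mean square difference of log2 values after centring each gene on its mean. Because the genes were picked by likeness over these same arrays, nothing is read from the peaks and lows they share with a carbonic anhydrase. For Car8 these were Ppa1 (0.728), a pyrophosphatase, Rras2 (0.867), Cpa6 (0.877), Cldn10 (0.912) and Gpc3 (0.939). Ppa1 averaged 18259 in transition zone, above all its other zones, as did Car8. Cpa6 and Gpc3 had their highest mean in proliferative zone instead. For Car9 they were Kctd4 (0.652), P4ha3 (0.754), a subunit of collagen prolyl hydroxylase, Loxl3 (0.783), a lysyl oxidase relative, Scrg1 (0.892) and Prr36 (0.899). Each of these 5 was lowest in hypertrophic zone, with P4ha3 at 142.5 in hypertrophic and 2650.6 in proliferative zone.

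For Car2 the nearest genes were Hbb (0.539), Alas2 (0.553), the heme synthesis enzyme of red cells, Alox15 (0.568), Abtb1 (0.58) and Ucp2 (0.586). Hbb and Alas2 are also among the erythroid markers, and the Hbb probe set is of a type that can bind related transcripts. For Car3 they were Atp2a1 (1.06), the calcium pump of fast muscle, Chchd10 (1.07), Myh2 (1.1), Mybpc1 (1.12) and Acta1 (1.14). Myh2 and Acta1 are also among the muscle markers, and all 5 had their highest mean in resting zone, where that of Car3 was second to hypertrophic zone. The distances of Car3 to its nearest genes were larger than those of the other 3.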

How the data were processed

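The authors deposited linear MAS5 intensity values for each array and probe set, as the submitters' processing notes name that tool. Its version is not given in the sources that were used. Over the 24 arrays the mean signal, trimmed of 2% of probe sets at each end, was 500.14 to 500.2, and no detection p-values were used. RNA was amplified and biotin-labelled, per the labels' protocols.

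Without renormalizing, signals were analysed as log2(signal + 16). Control probe sets (57) were dropped, and 19213 probe sets above their array's median in at least 4 arrays were tested (61.9% of the others). Platform gene names were updated to the rat gene table of GRCr8. Where a gene had several tested probe sets, the one with the highest mean log2 value stood for it. Of the probe sets tested, 13956 had 1 symbol, 323 had several and 4934 had none, and only the first kind was named.

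The fit used limma 3.58.1 under R 4.3.3 (trended eBayes, 15 residual degrees of freedom) on all arrays, with the animal as a fixed block and Benjamini-Hochberg adjustment over all probe sets tested. Genes were called at an adjusted p below 0.05 with at least a 2-fold difference. The labels tie arrays to numbered animals. After subtracting zone means, same-numbered arrays correlated across probe sets with a median r of 0.176 (46 pairs, -0.142 to 0.36), and other pairs of arrays with -0.0464 (184 pairs), and 21 of 24 arrays were closest to their own number. The script was tested on simulated data. The nearest 2 arrays of a zone differed by 0.617 (root mean square, log2), so none was a duplicate.

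The members and lists were chosen with earlier results of these data known. Named genes were the members, the other carbonic anhydrases, up to 5 called genes of smallest adjusted p per list and comparison, a few carriers, pump subunits and receptors tied to a member, the 5 nearest genes of each member, and the markers. The alternatives were pseudocounts of 1 and 64, no filter or one at the 75th percentile, scaling to one median, quantile normalization, no block or a random one, array weights, eBayes without the trend, fits restricted to the zones compared, other probe sets and leaving out each animal. Leaving out the hypertrophic array of animal 4 or the resting array of animal 3, those with the highest Car3 signal of their zone, was added after seeing the data. Promoter sequence is from RefSeq (GRCr8).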

Additional observations from a re-analysis of the deposited data

Results flagged for a closer look

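In 8 of 75 groups of 4 or 5 arrays looked at (in each zone, the 9 probe sets of the 6 chosen genes and the tested probe sets of the other carbonic anhydrases), 1 array lay far from the others of its zone by Dixon's criterion, where chance gives about 1 in 20 groups. Car2 read 1290.1 in the epiphyseal array of animal 1, against 447.6 to 505 in the others, and 945.6 in the hypertrophic array of animal 3, against 2531 to 3242.2. Car12 read 118.4 in the proliferative array of animal 4, against 10.8 to 26.3. Car1 read 122 in the epiphyseal array of animal 4, against 6.4 to 12.8. Car7 read 20.4 in the proliferative array of animal 3, against 72.6 to 98.7. The brightest Car11 probe set read 898.9 in the hypertrophic array of animal 5, against 264.9 to 375.7. Its dimmest probe set read 105.7 in the resting array of animal 3, against 222.8 to 294, and 6.9 in the hypertrophic array of animal 3, against 100.5 to 190.7.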

How the results depend on the processing

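For the 4 carbonic anhydrases with a signal above the filter, 366 of 370 differences recomputed under the alternatives moved by less than 1 SD between replicates, and none that was past the thresholds changed sign. That allowance was wide for Car3, whose log2 SD was 2.2859 in resting and 1.3179 in hypertrophic zone. Large shifts of Car3 could therefore count as not moved. The 4 that moved were Car9 between hypertrophic and proliferative zone with 64 added (-3.97), and the dim second probe set of Car3, with 0.76 between transition and proliferative zone, 0.91 between hypertrophic and transition zone and 1.66 between hypertrophic and proliferative zone; the cause was not tested. With the filter at the 75th percentile fewer genes were tested, and 1 other carbonic anhydrase and 3 transport genes passed the F test. With no replicate block 3 other carbonic anhydrases, 7 transport, 16 pump and 21 hypoxia genes passed it, against 3, 8, 18 and 25 with the animal as a block. The 3 other carbonic anhydrases with the block were Car11, Car14 and Car1. Car1 passed the filter through hypertrophic zone alone, so nothing is read from its part in these counts. Leaving out 1 animal at a time gave 2 to 3, 7 to 8, 14 to 18 and 22 to 25. Scaling all arrays to one median took the share of calls that were higher in hypertrophic relative to transition zone to 43.1%, against 73.2%, in transition relative to proliferative zone to 53.6%, against 36.9%, and in proliferative relative to resting zone to 42.6%, against 32.3%. It took the median difference of all probe sets between hypertrophic and transition zone to -0.24, against 0.0162. Leaving out 1 animal at a time, Car8 differed by -2.60 to -2.17 and Car9 by -3.43 to -2.74 between hypertrophic and transition zone, and Car2 by 2.17 to 2.55 and Car3 by 2.62 to 3.46. Array signals give no read depth.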
